A study of Mus musculus with 18 samples.

Results

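The 9 genes described here encode proteins of the contacts between endothelial cells: the cadherin Cdh5 (VE-cadherin), the tight junction proteins Cldn5 (claudin-5) and Ocln (occludin), the immunoglobulin-domain adhesion molecules Esam, Jam2, Jam3, F11r (also called JAM-A) and Pecam1 (CD31), and the cytoplasmic scaffold Tjp1 (ZO-1). They were chosen by name and read from 18 tables of raw read counts, each with the same 23238 gene symbols. All libraries came from adult C57BL/6J mice and were sorted by flow cytometry into intestinal stromal cells (IntSCs) or lymphatic endothelial cells (LECs), taken from lacteals, the blind-ended lymphatics of the intestinal villus. The WT mice (6 IntSC and 4 LEC libraries) carried PDGFRb+-CreERT2-Tomato+, a Cre recombinase that the Pdgfrb promoter drives and tamoxifen activates, with a Tomato reporter, so that the controls also held the Cre and the reporter. The KO mice (5 IntSC and 3 LEC libraries) carried the same alleles together with floxed Lats1 and Lats2, the kinases that restrain YAP and TAZ. The Pdgfrb promoter is active in fibroblasts, smooth muscle cells and pericytes and not in lymphatic endothelium, so the LECs are neighbours of the targeted cells. Nothing in the labels ties a library to an animal, and the tests below therefore measure the spread between these libraries.

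Endothelial cells are held together by adherens junctions, in which the extracellular part of VE-cadherin binds its like on the next cell and the cytoplasmic part binds catenins, and by tight junctions, in which claudins and JAM-family proteins seal the gap and are tied to the actin cytoskeleton by ZO proteins. In lymphatic capillaries such as lacteals the same proteins are arranged either in discontinuous buttons, which leave flaps for the uptake of fluid and lipid particles, or in continuous zippers. The arrangement is a matter of where the proteins sit in the membrane, which RNA counts do not record. The comparison of KO with WT LECs asks whether the RNA of these proteins differed in lacteals beside a stroma targeted for Lats1 and Lats2, and the comparison of LECs with IntSCs asks which of them are expressed in the endothelium rather than in the stroma.

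The genes lie on 7 chromosomes of the mouse assembly GRCm38 (GENCODE vM21). Cdh5 spans chr8:104101625-104144511 and Cldn5 chr16:18776847-18778262, both on the plus strand, and the single coding transcript of Cldn5 has 1 exon. Esam spans chr9:37528078-37538319, Jam2 chr16:84774123-84825928 and F11r chr1:171437535-171464603, all on the plus strand. On the minus strand are Ocln (chr13:100496507-100552718), Jam3 (chr9:27097384-27155421), Pecam1 (chr11:106654217-106750628) and Tjp1 (chr7:65296165-65527781). Of the genes that overlap a member in this annotation, Gm29682, antisense to Cdh5, was the only one in the count tables, and it held 0 reads in all libraries.

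Promoter sequences are shown for Cldn5 and F11r, the members with RNA far above the stromal level in LECs for which the RefSeq promoter table (GRCm38.p6) held an entry. The table held 4 of the 9 members, also Tjp1 and Ocln. Each sequence is the 250 bases before the RefSeq start, 5′ to 3′, for Cldn5 at chr16:18776597-18776846 and for F11r at chr1:171437311-171437560, both on the plus strand. Capitals mark CACCTG, the reverse complement of the E-box CAGGTG.
Cldn5: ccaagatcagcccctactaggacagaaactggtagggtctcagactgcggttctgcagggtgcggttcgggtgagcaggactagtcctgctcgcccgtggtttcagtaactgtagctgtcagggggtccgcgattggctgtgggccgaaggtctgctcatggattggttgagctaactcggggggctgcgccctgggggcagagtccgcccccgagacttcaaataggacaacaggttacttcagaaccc
F11r: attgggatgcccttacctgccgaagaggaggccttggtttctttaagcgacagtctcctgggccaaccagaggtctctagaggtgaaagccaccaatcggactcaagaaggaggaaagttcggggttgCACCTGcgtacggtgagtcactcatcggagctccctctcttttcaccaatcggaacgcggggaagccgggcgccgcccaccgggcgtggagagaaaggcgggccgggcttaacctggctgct
The E-box CAGGTG, on either strand, was present at 1 place in F11r, 122 bases before the start, and in 1 of the 2 Ocln starts, which made 2 of 5 member promoters against 17.2% of 32851 promoters of this length. GGAATG, the core letters bound by TEAD, the DNA-binding partner of YAP and TAZ, was in 0 of the 5 on either strand and in 12.6% of all. The G and C content was 59.6% for Cldn5, 60.0% for F11r, 63.2% for Tjp1, and 64.0% and 69.2% for the 2 Ocln starts. These letters describe the windows and say nothing about what binds there.

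The libraries held between 5361250 and 10549233 reads. Values are CPM, read counts scaled to library size with TMM factors over all libraries. Since the libraries are sequenced from the 3′ end of each transcript, CPM of one gene is compared here between libraries, and levels of different genes are not ranked. The sums of the marker lists set the labelled cell types apart: 10 LEC genes (among them Prox1, Lyve1, Flt4 and Ccl21a) summed to between 9302 and 15204 CPM in LEC libraries and between 388 and 754 CPM in IntSC libraries, while 8 stromal genes (among them Pdgfra, Col1a1 and Dcn) summed to between 7578 and 16950 CPM in IntSCs and between 304 and 2085 CPM in LECs. Of the 10 LEC genes, 8 were higher in WT LECs and 9 in KO LECs by the test. Pdpn had 306 CPM in WT LECs and 239 CPM in WT IntSCs (adjusted p = 0.457). In KO it was lower in LECs (180 against 329 CPM, adjusted p = 0.0192). An antibody to its product, podoplanin, is among those the study lists for flow cytometry. Pdpn and Nr2f2 had the highest means of the LEC list in WT IntSCs, 239 and 231 CPM. The highest stromal value among LECs, 2085 CPM, was that of WT LEC 1, the other LEC libraries lying at or below 688 CPM. The targeted genes were not lower in the stroma labelled KO. Lats1 had 17.5 ± 10.3 CPM (SD, n = 6) in the WT stroma and 16.0 ± 3.28 CPM (SD, n = 5) in the KO stroma, and Lats2 had 72.8 ± 23.7 and 114 ± 20.3 CPM, neither passing the test (adjusted p = 0.987 and 0.252). Reads from the 3′ end can count a transcript that has lost internal exons, so these counts do not check the deletion, and KO below means the libraries so labelled.

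In LECs, no junction gene passed the test between KO and WT. Of the 9 members 7 could be tested (Ocln and Jam2 had too few reads), 0 had an adjusted p under 0.05, and 0 had an unadjusted p under 0.05. Over all 10639 genes tested 0.0658% passed the adjusted threshold and 7.87% the unadjusted one. The median log2 fold change of the 7 was -0.37, with 5 values below 0, against -0.03 over all genes. Cldn5 lay closest to no difference, and F11r was the member whose libraries did not overlap. Stromal and epithelial genes were read in the same LEC libraries. The 8 stromal genes all had values below 0 in KO LECs (median -1.27), 0 of them passed, and their sum lay between 629 and 2085 CPM in WT and between 304 and 571 CPM in KO, without overlap. Col3a1, a fibrillar collagen, had 143 ± 96.3 CPM (SD, n = 4) in WT and 16.8 ± 7.63 CPM (SD, n = 3) in KO LECs (adjusted p = 0.0879, and under 0.05 in 4 of 16 alternatives). The 3 epithelial genes that could be tested, Krt8, Krt18 and Krt19, had values above 0, and the epithelial sum lay between 21.9 and 44.1 CPM in WT and between 24.4 and 128 CPM in KO. The untested genes of the list did not run one way. Fabp2 (7.66 CPM in WT, 0.034 in KO), Vil1 (5.59 and 0) and Muc2 (5.38 and 0.034) had lower KO means. Epcam (0.048 and 10.2 CPM) and Cdh1 (0.335 and 16.4 CPM) had higher KO means. The part of these cells in the members' values was not tested.

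Cdh5, the cadherin on which endothelial adherens junctions are built, had 133, 259, 273 and 275 CPM in the 4 WT LEC libraries and 246, 112 and 148 CPM in the 3 KO LEC libraries. WT LEC 1 stood apart from the other WT LECs and lay inside the KO range. The means were 235 ± 68.6 CPM (SD, n = 4) and 169 ± 69.6 CPM (SD, n = 3), and the log2 fold change was -0.41 ± 0.36 (SE, adjusted p = 0.9999). Without WT LEC 1 it was -0.61 (adjusted p = 0.986), and without KO LEC 1, the highest KO library, -0.77 (adjusted p = 0.662).

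Cldn5, the claudin that seals endothelial tight junctions, had 1542, 1234, 976 and 1359 CPM in WT LECs and 1416, 1142 and 1324 CPM in KO LECs. Every KO library lay inside the WT range. The log2 fold change was 0.09 ± 0.21 (SE, adjusted p = 0.9999), the value nearest to 0 among the members, and it was -0.035 without WT LEC 3, the lowest library.

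F11r had 871, 663, 832 and 828 CPM in WT LECs and 654, 656 and 448 CPM in KO LECs. Every KO library was below every WT library, by a margin of less than 10 CPM between KO LEC 2 and WT LEC 2. The log2 fold change was -0.37 ± 0.23 (SE) and did not pass (adjusted p = 0.843, with values from -0.21 to -0.46 over the alternatives tried). F11r was 1 of 7 tested members without overlap, where 9.93% of all tested genes did not overlap in either direction and 6.45% did not overlap and were lower in KO.

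Pecam1, which binds its like on the adjoining cell, had 460.2, 477, 705 and 749 CPM in WT LECs and 546, 479 and 409 CPM in KO LECs. The groups overlapped, with a log2 fold change of -0.25 ± 0.25 (SE, adjusted p = 0.9999). LECs were sorted with an antibody to CD31, the product of this gene, so the gate sets a minimum of its protein in both genotypes. Esam, a JAM-related adhesion molecule, had 67.5, 96.0, 47.9 and 141 CPM in WT LECs and 118, 46.4 and 29.5 CPM in KO LECs. The KO libraries spread as widely as the WT libraries, and the log2 fold change was -0.39 ± 0.54 (SE, adjusted p = 0.9999).

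The remaining members were low in LECs. Jam3 had 18.3, 7.90, 23.0 and 51.3 CPM in WT LECs and 0, 29.1 and 12.3 CPM in KO LECs, with no reads in KO LEC 1 and a log2 fold change of -0.77 ± 1.47 (SE, adjusted p = 0.9999). Tjp1, which links the membrane proteins to actin, had 32.6, 37.0, 20.6 and 32.2 CPM in WT LECs and 134, 18.7 and 31.5 CPM in KO LECs. A single library, KO LEC 1, carried the higher KO mean: the log2 fold change was 1.06 ± 0.69 (SE, adjusted p = 0.893) with it and -0.19 without it. Jam2 had 1, 0, 0 and 1 reads in the WT LEC libraries and 0, 128 and 0 reads in the KO LEC libraries, so that its RNA in LECs came from KO LEC 2, at 13.2 CPM. KO LEC 2 was also the KO LEC library with the most Jam3.

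Ocln, a membrane protein of tight junctions, was almost without reads. A single read was counted in WT IntSC 5 and 0 in the other 17 libraries, where 3 counts would have been between 0.284 and 0.560 CPM. The epithelium around the lacteals uses occludin. In these libraries 10 epithelial genes summed to at most 137 CPM. WT IntSC 6 had 71.0 CPM of the epithelial cadherin Cdh1 and no read of Ocln. The cause of the low Ocln counts was not tested.

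**Figure D1:**
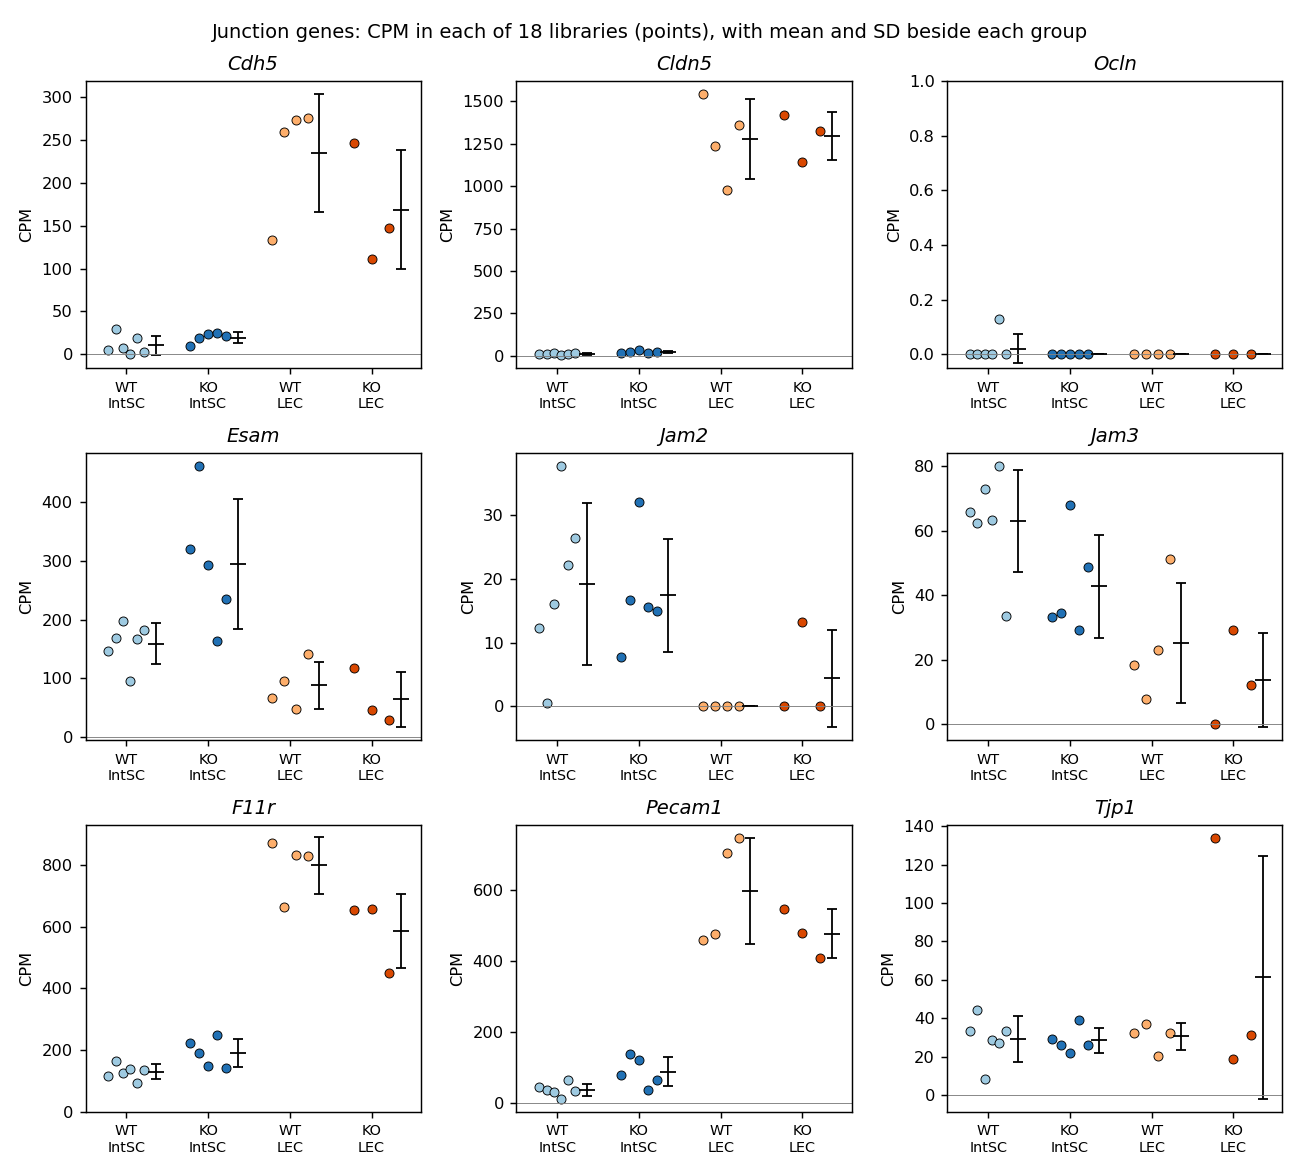
CPM (y axis, linear, a scale of its own for each gene) of the 9 junction genes in each of 18 libraries, by group on the x axis; points are libraries in the order of their numbers and the bar beside them is the mean ± SD. Cdh5, Cldn5, F11r and Pecam1 stand far higher in both LEC groups, Esam and Jam3 have their highest libraries in IntSCs, Jam2 rests in LECs on KO LEC 2, and the high Tjp1 mean of KO LECs on KO LEC 1.

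In IntSCs, Esam, Pecam1, Cldn5, F11r and Cdh5 had values above 0 in KO, and no member passed the adjusted threshold. Of the 8 members tested, 0 had an adjusted p under 0.05, where 1.47% of 12421 genes did, and 4 (Esam, Pecam1, F11r and Cldn5) had an unadjusted p under 0.05, where 9.81% of all genes did. None of the 8 was without overlap between the groups (2.83% of all genes). The median log2 fold change of the 8 was 0.72, with 5 values above 0, against 0.00 over all genes. In these bulk samples more endothelial cells in the sort and more RNA of a gene per cell cannot be told apart.

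Esam had a lowest, median and highest value of 95.0, 168 and 197 CPM in the 6 WT IntSC libraries, and 321, 461, 293, 164 and 236 CPM in the 5 KO IntSC libraries. KO lay above every WT library in 4 of 5 libraries, the exception being KO IntSC 4. The means were 159 ± 35.7 CPM (SD, n = 6) and 295 ± 111 CPM (SD, n = 5), and the log2 fold change was 0.89 ± 0.23 (SE, adjusted p = 0.0598). It passed with DESeq2 (adjusted p = 0.0142), with no filter beyond 1 read (0.0323) and without KO IntSC 4 (0.0197), and the range of adjusted p over all alternatives was 0.0142 to 0.536.

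Pecam1 ran from 12.1 through a median of 36.6 to 63.6 CPM in WT IntSCs and had 79.9, 137, 120.1, 38.0 and 65.5 CPM in KO IntSCs. Again 4 of 5 KO libraries exceeded every WT library and KO IntSC 4 did not. The log2 fold change was 1.23 ± 0.35 (SE, adjusted p = 0.101), and it passed with DESeq2 (adjusted p = 0.0415) and without KO IntSC 4 (0.0388), with a range up to 0.313 over the alternatives. CD31+ cells were depleted before the stromal sort, so the Pecam1 counted here is what the depletion left.

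Cldn5 ran from 5.22 through 12.6 to 17.1 CPM in WT IntSCs and had 18.4, 25.9, 35.3, 15.8 and 24.8 CPM in KO IntSCs, with 4 of 5 KO libraries above all WT libraries. Its log2 fold change was 0.96 ± 0.42 (SE, adjusted p = 0.429). F11r ran from 93.1 through 130.4 to 166 CPM in WT IntSCs and had 223, 190.0, 147, 248 and 142 CPM in KO IntSCs, with 3 of 5 above all WT libraries and a log2 fold change of 0.56 ± 0.20 (SE, adjusted p = 0.257). Its highest library was KO IntSC 4, the library in which Esam and Pecam1 were lowest among KO. Cdh5 ran from 0.337 through 5.79 to 29.8 CPM in WT IntSCs and had 9.42, 18.8, 23.6, 24.3 and 21.0 CPM in KO IntSCs. The WT libraries were the more scattered, and the log2 fold change was 0.89 ± 0.70 (SE, adjusted p = 0.809).

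Jam3, Jam2 and Tjp1 gave values below 0, which for Jam2 and Tjp1 lay above 0 with limma-voom. Jam3, a JAM found in endothelium, muscle and fibroblasts, ran from 33.5 through 64.6 to 80.1 CPM in WT IntSCs and had 33.1, 34.4, 68.0, 29.2 and 48.9 CPM in KO IntSCs, a log2 fold change of -0.56 ± 0.28 (SE, adjusted p = 0.528). Jam2 ran from 0.516 through 19.1 to 37.7 CPM in WT IntSCs and had 7.72, 16.7, 32.0, 15.5 and 15.01 CPM in KO IntSCs (log2 fold change -0.14 ± 0.61 SE, adjusted p = 0.984). Tjp1 ran from 8.53 through 31.1 to 44.5 CPM in WT IntSCs and had 29.3, 25.9, 22.0, 39.4 and 26.0 CPM in KO IntSCs (log2 fold change -0.04 ± 0.36 SE, adjusted p = 0.991). For the latter pair the KO libraries lay within the WT range.

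**Figure D2:**
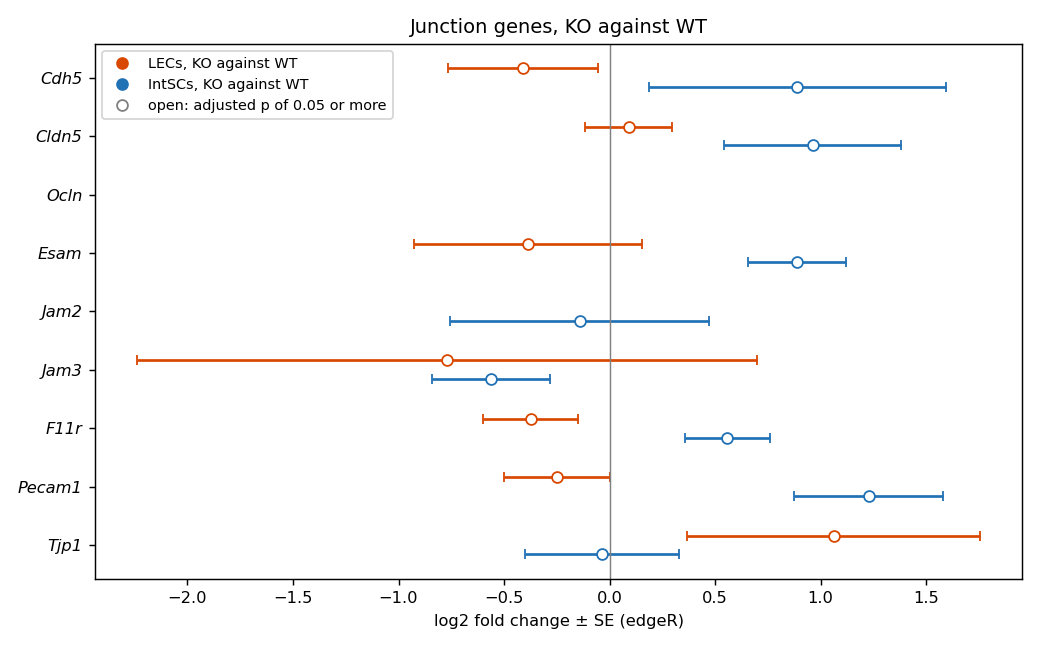
Log2 fold change of KO against WT (x axis, ± SE from the edgeR fit) for each junction gene (y axis) in LECs and IntSCs; open points did not pass an adjusted p of 0.05. All points are open; Esam, Pecam1, F11r and Cdh5 have values above 0 in IntSCs and below 0 in LECs, Ocln was not tested, and Jam2 was tested in IntSCs.

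Most genes of blood endothelium had values above 0 in the same comparison. The 9 blood endothelial genes summed to between 359 and 524 CPM in WT IntSCs and to between 423 and 1054 CPM in KO IntSCs, and 7 of the 9 had values above 0 (median log2 fold change 0.91), with Ly6c1 passing the test (0.87 ± 0.21 SE, adjusted p = 0.0390). Ly6c1 passed in 8 of 20 alternatives (adjusted p from 0.00706 to 0.643), and lost its call without any of the 6 WT libraries or KO IntSC 1, 2 or 3. Flt1, a VEGF receptor high in blood vessels, had 54.9 ± 22.0 CPM in WT and 109 ± 56.2 CPM in KO IntSCs, and Sox17, a factor of arterial endothelium, 18.4 ± 13.5 and 46.5 ± 19.1 CPM (SD, n = 6 and 5), with adjusted p = 0.174 for both. Esm1 and Vwf went the other way. Esm1 had 7.48 ± 7.86 CPM in WT and 0.434 ± 0.539 CPM in KO (log2 fold change -4.05 ± 1.36 SE, adjusted p = 0.187). Vwf had 12.0 ± 10.6 and 6.89 ± 3.81 CPM (-0.80 ± 0.75 SE, adjusted p = 0.862). By library, KO IntSC 2 had the highest blood endothelial sum (1054 CPM) and the highest Esam and Pecam1. KO IntSC 3 and KO IntSC 1 came next in the sum (780.2 and 694 CPM) and in Pecam1. KO IntSC 4 and KO IntSC 5, at 507 and 423 CPM, lay inside the WT range of the sum, and of these KO IntSC 5 had more Esam (236 CPM) and Pecam1 (65.5 CPM) than any WT library. Cdh5 was not ordered by the sum. Its highest IntSC value was that of WT IntSC 2 (29.8 CPM, at a sum of 403 CPM). KO IntSC 4 and KO IntSC 5 had more Cdh5 (24.3 and 21.0 CPM) than KO IntSC 2 (18.8 CPM). Of the 8 LEC genes tested in IntSCs, 4 had values above 0 and 0 passed, Prox1 had at most 0.172 CPM in WT and 0.149 CPM in KO IntSCs, and the list summed to between 388 and 686 CPM in WT and between 585 and 754 CPM in KO. The epithelial list summed to between 0 and 122 CPM in WT (median 6.56) and between 38.6 and 137 CPM in KO IntSCs (median 73.1), and 122 CPM was the value of WT IntSC 6, the other WT libraries lying at or below 18.03 CPM. Of the 7 epithelial genes tested, 6 had values above 0, and Krt19, a keratin of epithelium, passed (adjusted p = 0.00339, as in 18 of 20 alternatives), with 0 reads in all WT and between 2.09 and 41.5 CPM in KO libraries. The stromal list summed to between 11039 and 16950 CPM in WT and between 7578 and 12629 CPM in KO, with 7 of 8 genes below 0 (median -0.47) and Col3a1 passing (-0.92 ± 0.23 SE, adjusted p = 0.0438). Pdgfrb, whose promoter drives the Cre, was the stromal gene above 0. It had 484 ± 164 CPM in WT and 878 ± 187 CPM in KO (0.86 ± 0.23 SE, adjusted p = 0.0613). Smooth muscle genes summed to between 1037 and 1801 CPM in WT and between 1252 and 2336 CPM in KO, with 5 of 6 genes above 0 and 0 passing. Pericyte genes summed to between 267 and 512 CPM and between 251 and 515 CPM, with 4 of 5 genes below 0 and Kcnj8, a potassium channel of pericytes, passing (-1.41 ± 0.35 SE, adjusted p = 0.0472). Notch3 was the exception, at 150 CPM in WT and 253 CPM in KO (0.75 ± 0.24 SE, adjusted p = 0.149). Kcnj8 was not particular to the stroma here: its mean was higher in LECs, at 105 CPM in WT and 80.0 CPM in KO, than in IntSCs (36.0 and 13.5 CPM). Col3a1 passed in 11 of 20 alternatives and Kcnj8 in 7, and leaving out a single library ended the call for 8 of 11 libraries in Col3a1 (not WT IntSC 1 or 3 or KO IntSC 4) and for 9 of 11 in Kcnj8 (not WT IntSC 3 or 6). The part of any of these cells in the members' values was not tested.

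Set against the LEC level, the stromal differences were small for the genes high in LECs. The KO minus WT difference in mean CPM in IntSCs was 0.918% of the WT LEC mean for Cldn5, 3.80% for Cdh5, 7.61% for F11r and 8.44% for Pecam1. For Esam the difference of 136 CPM was 154% of the WT LEC mean of 88.2 CPM. Vascular genes did not share one size: for Flt1 the difference of 54.1 CPM was 571% of the WT LEC mean of 9.48 CPM. For Plvap, of the same blood endothelial list, the difference of 11.1 CPM was 11.6% of the WT LEC mean, and for Kdr 22.6 CPM was 1.59%. These shares describe amounts, and no test was made of them.

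**Figure D3:**
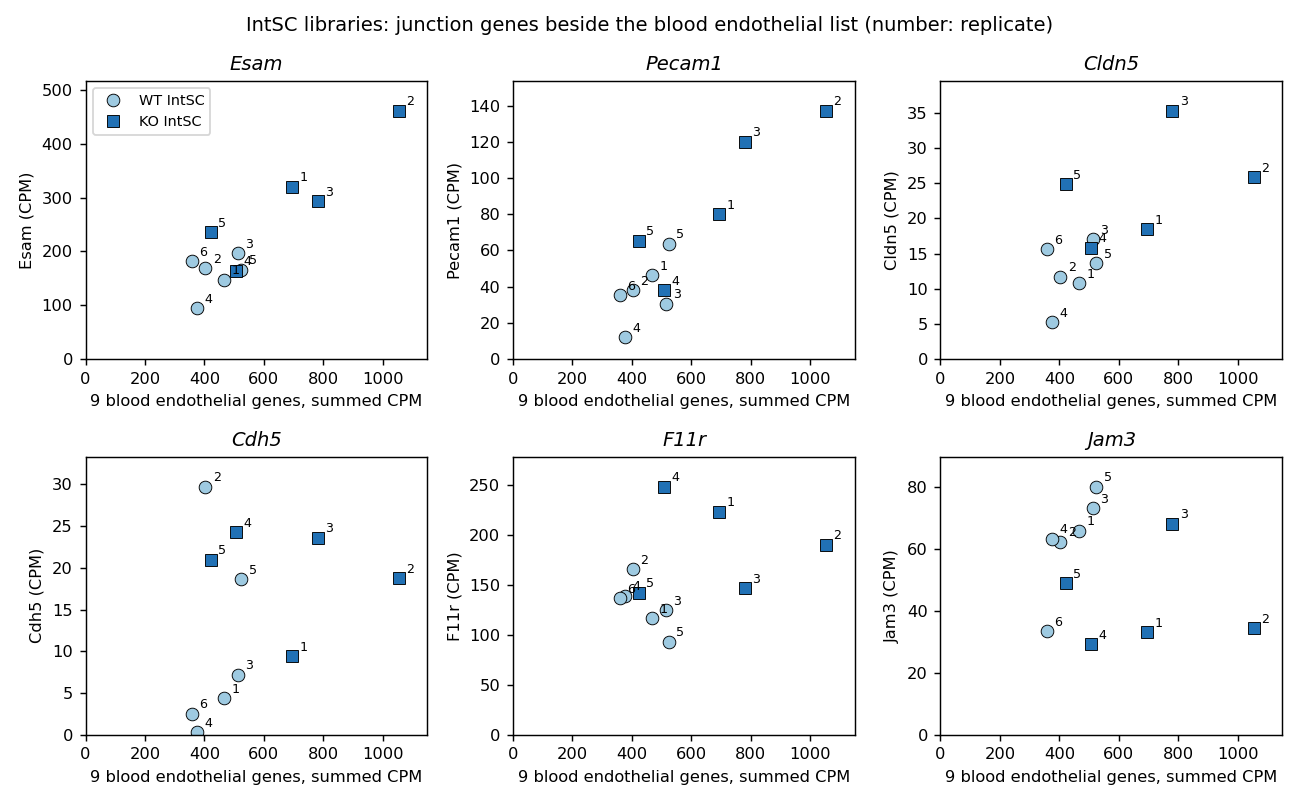
CPM of 6 junction genes (y axes) in 11 IntSC libraries against the summed CPM of 9 blood endothelial genes (x axis); circles are WT and squares KO, each with its replicate number. KO IntSC 1, 2 and 3 lie to the right of all WT libraries, with Esam and Pecam1 above them, while Cdh5, F11r and Jam3 are not ordered along the x axis. The highest Cdh5 value is that of WT IntSC 2 (29.8 CPM at a sum of 403 CPM).

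Between the cell types the members split into 3 kinds. In WT, 4 of 8 tested members were higher in LECs (Cldn5, Cdh5, F11r and Pecam1) and 1 was lower (Jam2), where over 12203 genes 10.3% were higher and 12.3% lower. In KO, 4 were higher (the same 4 genes) and 1 was lower (Esam), where over 12758 genes 9.11% were higher and 16.8% lower. In WT 5 members did not overlap between the cell types (21.1% of all genes) and in KO 6 (32.3%). Pecam1 was used in both sorts, so its difference restates the gate. These comparisons use the same libraries as the comparisons of genotype.

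Cldn5 differed most among the members high in LECs: 1278 ± 237 CPM (SD, n = 4) in WT LECs against 12.3 ± 4.19 CPM (SD, n = 6) in WT IntSCs, a log2 fold change of 6.70 ± 0.31 (SE, adjusted p = 3.06e-09). In KO it was 1294 ± 139 CPM (SD, n = 3) against 24.1 ± 7.58 CPM (SD, n = 5), with a difference on the log2 scale of 5.75 ± 0.28 (SE, adjusted p = 1.80e-06). Cdh5 was 22.5 times higher in WT LECs (log2 fold change 4.49 ± 0.76 SE, adjusted p = 6.12e-04) and 8.66 times higher in KO LECs (3.11 ± 0.38 SE, adjusted p = 2.56e-04). F11r, which is not limited to endothelium and is also made by epithelium and leukocytes, was present in every IntSC library at 93.1 CPM or more, and was 6.21 times higher in WT LECs (log2 fold change 2.63 ± 0.20 SE, adjusted p = 1.98e-07) and 3.08 times higher in KO LECs (1.62 ± 0.24 SE, adjusted p = 9.71e-04). For these 3 genes all LEC libraries exceeded all IntSC libraries in both genotypes, so the group means ran LEC above IntSC with the genotypes of each cell type not told apart by the test. Pecam1 had 598 ± 150 CPM (SD, n = 4) in WT LECs and 37.7 ± 17.1 CPM (SD, n = 6) in WT IntSCs.

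Esam ran the other way. Its group means ran from KO IntSCs (295 CPM) through WT IntSCs (159 CPM) and WT LECs (88.2 CPM) to KO LECs (64.5 CPM). No neighbours in this order passed the test, WT LECs against WT IntSCs giving a log2 fold change of -0.85 ± 0.31 (SE, adjusted p = 0.0591), while KO LECs were lower than KO IntSCs by a log2 fold change of -2.20 ± 0.49 (SE, adjusted p = 0.00841). In WT it passed with DESeq2 (adjusted p = 0.0277), limma-voom (0.0242), RLE (0.0440) and upper-quartile factors (0.0324) and without WT LEC 4 (0.0146) or WT IntSC 4 (0.03525), with adjusted p up to 0.208 over the alternatives. Cells that make Esam include blood endothelium and platelets. Platelet genes summed to at most 11.03 CPM in any library. The blood endothelial genes did not run one way between the cell types: in WT 2 of 9 tested were higher and 1 lower in LECs, and in KO 2 of 8 were higher and 4 lower. Ly6c1 was lower in LECs than in IntSCs (24.0 against 113 CPM in WT, adjusted p = 0.00206, and 24.4 against 208 CPM in KO, adjusted p = 2.63e-04), and Flt1 had 9.48 against 54.9 CPM in WT (adjusted p = 0.112) and 5.85 against 109 CPM in KO (adjusted p = 0.0105). Nos3, the nitric oxide synthase of endothelium, was higher in WT LECs (70.0 against 17.9 CPM, adjusted p = 0.00242), and Cd36, a fatty acid carrier, in KO LECs (64.1 against 24.9 CPM, adjusted p = 0.0442, a call lost in 11 of 17 alternatives and without any single library but KO LEC 2). Aqp1, a water channel, was higher in LECs in both genotypes. The part of blood endothelial, platelet, pericyte or smooth muscle RNA in the Esam counts was not tested. In LECs, Aqp1 made up between 97.3% and 98.9% of the blood endothelial sum, and the other 8 genes summed to between 139 and 330.5 CPM; this split was chosen after the values were seen.

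Jam2 and Jam3 had lower means in LECs than in IntSCs in both genotypes, and of these differences that of Jam2 in WT passed. Jam2 had 721 reads over the 6 WT IntSC libraries and 2 reads over the 4 WT LEC libraries. Relative to library sizes scaled by the TMM factors, this was 372 times lower, with a 95% interval from 103 to 3075 that covers counting error only (exact, conditional on the sum). Jam2 passed the test in WT (adjusted p = 8.79e-04). In KO the level was 17.4 ± 8.92 CPM in IntSCs (SD, n = 5), and the LEC difference did not pass (adjusted p = 0.466) with KO LEC 2 and passed without it (adjusted p = 0.00321) and with limma-voom (0.02095). Jam3 had 63.0 ± 15.9 CPM (SD, n = 6) in WT IntSCs and 25.1 ± 18.6 CPM (SD, n = 4) in WT LECs, a log2 fold change of -1.32 ± 0.47 (SE, adjusted p = 0.0537), and in KO -1.63 ± 1.14 (SE, adjusted p = 0.362). In WT, Jam3 passed with DESeq2 (adjusted p = 0.0174), limma-voom (0.0160), RLE (0.0412) and upper-quartile factors (0.0315) and without WT LEC 4 (0.00712) or WT IntSC 6 (0.0404), with adjusted p up to 0.218 over the alternatives. Jam3 was above 0 in every WT LEC library.

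Tjp1 did not follow cell type: it had 29.3 ± 11.9 CPM (SD, n = 6) in WT IntSCs, 28.5 ± 6.60 CPM (SD, n = 5) in KO IntSCs and 30.6 ± 7.02 CPM (SD, n = 4) in WT LECs, a log2 fold change between the WT cell types of 0.07 ± 0.47 (SE, adjusted p = 0.947) that was -0.045 with upper-quartile scaling. In KO the value was 1.10 ± 0.59 (SE, adjusted p = 0.213) with KO LEC 1 and -0.19 without it. Upper-quartile scaling moved the median of all genes between the WT cell types by -0.11, and the members moved with it; the directions of the other 7 tested members held under TMM, RLE and upper-quartile factors.

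**Figure D4:**
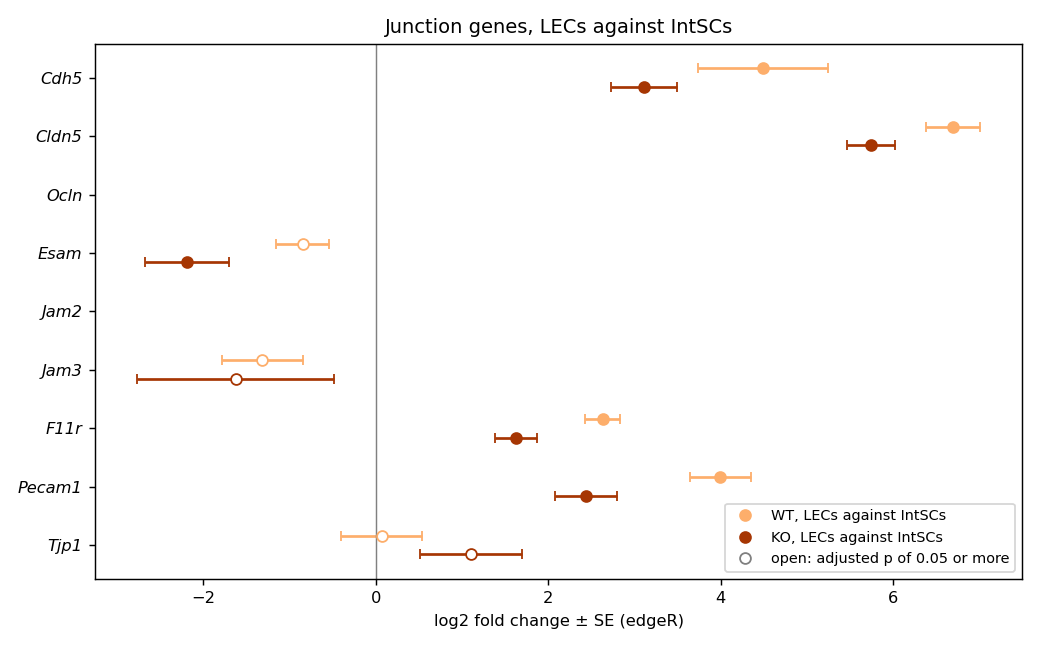
Log2 fold change of LECs against IntSCs (x axis, ± SE from the edgeR fit) for each junction gene (y axis) in WT and in KO; filled points passed an adjusted p of 0.05. Cldn5, Cdh5, Pecam1 and F11r lie to the right with filled points in both genotypes, Esam to the left; Ocln was not tested, and Jam2 is left out because its WT value rests on 2 reads.

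A fit of all 4 groups compared the change with genotype in IntSCs with that in LECs. None of the 8 members tested passed (0 of 8, where 1.70% of 14015 genes did), and 5 had an unadjusted p under 0.05 (15.8% of all genes). The difference, IntSC change minus LEC change on the log2 scale, was 1.003 ± 0.31 for F11r (SE, adjusted p = 0.103), 1.55 ± 0.52 for Pecam1 (0.132), 1.34 ± 0.53 for Esam (0.207), 0.95 ± 0.39 for Cldn5 (0.227) and 1.37 ± 1.01 for Cdh5 (0.611), against a median of 0.24 over all genes. F11r thus had values of 0.56 in IntSCs and -0.37 in LECs with no test passed for either or for their difference. Esam passed without KO LEC 1 (adjusted p = 0.0312, value 2.10), with adjusted p up to 0.597 over the alternatives. Jam2 had -6.21 ± 2.00 (SE, adjusted p = 0.115), a value that was 1.89 without KO LEC 2. Tjp1 had -1.04 ± 0.77 (SE, adjusted p = 0.603), and 0.24 without KO LEC 1, and Jam3 0.30 ± 1.07 (SE, adjusted p = 0.994), and -0.32 without WT LEC 4. RLE scaling moved the median of all genes in this comparison by -0.11.

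The 65 partner genes were put into 4 lists by role: catenins, nectins and other adherens junction partners (16), tight junction partners (29), other endothelial contact proteins (9), and the Rap1 and CCM proteins that regulate endothelial junctions (11). In LECs, 53 of the 65 could be tested between KO and WT. Of these 0 passed (0.0658% of all genes) and 4 had an unadjusted p under 0.05 (7.87% of all genes), and the median log2 fold change was 0.04 against -0.03 over all genes. Emcn, endomucin, a sialomucin of venous and lymphatic endothelium, had 505 ± 42.1 CPM (SD, n = 4) in WT LECs and 279 ± 46.4 CPM (SD, n = 3) in KO LECs, with a log2 fold change of -0.78 ± 0.24 (SE, adjusted p = 0.373). Pvrl2 (nectin-2), an adherens junction adhesion molecule, had 360 ± 40.8 CPM (SD, n = 4) in WT LECs and 553 ± 7.496 CPM (SD, n = 3) in KO LECs, with a log2 fold change of 0.69 ± 0.22 (SE, adjusted p = 0.410). Both are named for their small p. Of the 53 genes, 4 did not overlap between the genotypes (9.93% of all genes), Pvrl2 and Ccm2 being higher and Emcn and Cgnl1 lower in KO. Emcn ran from 473 to 567 CPM in WT and from 242 to 331 CPM in KO, and Pvrl2 from 307 to 397 CPM in WT and from 548 to 562 CPM in KO. Emcn and Pvrl2 passed with DESeq2 (adjusted p = 0.0437 and 0.0327) and in none of the other 15 alternatives. Krit1, the CCM protein that binds Rap1 and HEG1, had 239, 191, 342 and 4 reads in the WT LEC libraries and 1, 4 and 1 reads in the KO LEC libraries, which did not pass in LECs (adjusted p = 0.464, from 0.00157 to 0.9996 over the alternatives). WT LEC 4 was thus as low as the KO libraries. In IntSCs Krit1 had between 25.6 and 59.8 CPM in every library, and it was the 1 list gene of 61 that passed the test of genotype by cell type, where 1.70% of all genes did (adjusted p = 0.00674), as in 24 of 26 alternatives. No fold is given for it, since KO LECs hold so few reads.

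In IntSCs, 1 of 54 tested partner genes rose and 1 fell, where over all genes 0.853% were higher and 0.62% lower, and the median was 0.26 against 0.00 over all genes. Rapgef3 (EPAC1), the cAMP-regulated exchange factor that activates Rap1, rose from 43.4 ± 17.5 CPM (SD, n = 6) to 107 ± 40.5 CPM (SD, n = 5), with a difference on the log2 scale of 1.30 ± 0.32 (SE, adjusted p = 0.0479). It passed in 8 of 20 alternatives (adjusted p from 0.0115 to 1), and lost its call without any of 10 of the 11 libraries, the exception being WT IntSC 3. Cd34, a sialomucin of vessels and of fibroblast subsets, fell from 1707 ± 563 CPM (SD, n = 6) to 824 ± 74.3 CPM (SD, n = 5), with a difference on the log2 scale of -1.05 ± 0.20 (SE, adjusted p = 0.00688). Clmp, a relative of the JAMs found in epithelium and mesenchyme, had 682 ± 253 CPM (SD, n = 6) in WT against 385 ± 27.3 CPM (SD, n = 5) in KO and did not pass (adjusted p = 0.0611, and 0.00837 with DESeq2). By list, 1 of 11 Rap1 and CCM regulators rose, with 7 values above 0 and 4 below (Krit1, Ccm2, Pdcd10 and Radil), 1 of 9 other contact proteins fell, and 0 of 16 adherens and 0 of 18 tested tight junction partners passed.

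**Figure D5:**
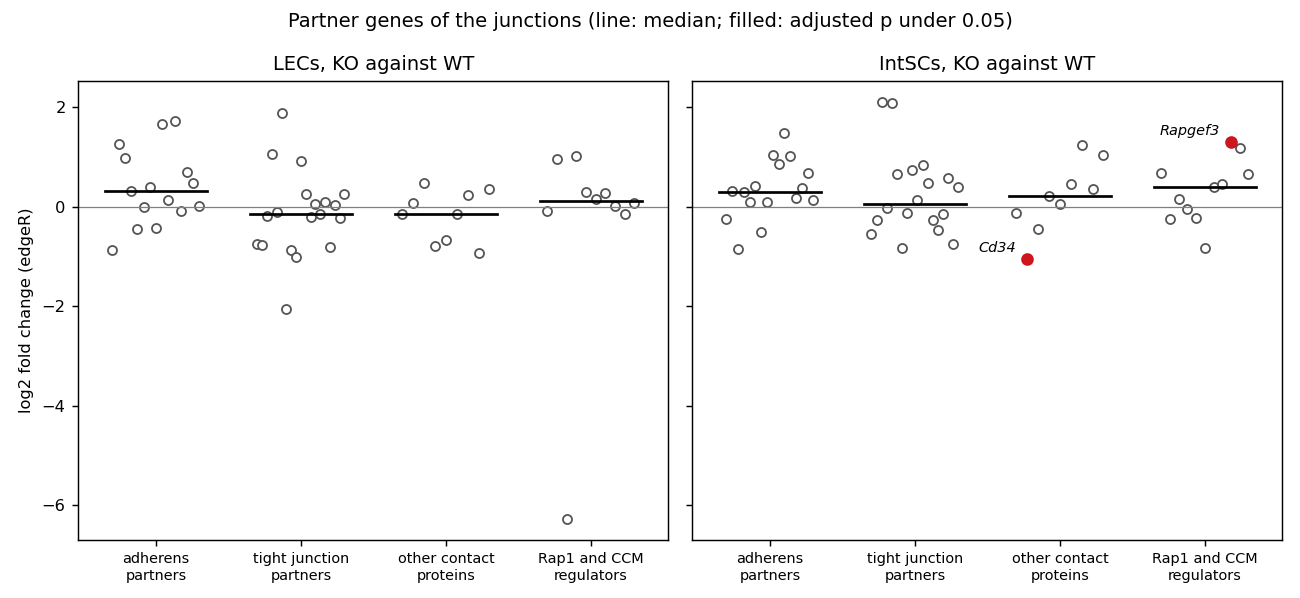
Log2 fold change of KO against WT (y axis) for the tested genes of the 4 partner lists (x axis) in LECs and IntSCs; each point is a gene, the line is the list's median, and filled points passed an adjusted p of 0.05. No point is filled in LECs, where the lowest point is Krit1, which rests on 6 reads in KO; Cd34 and Rapgef3 are filled in IntSCs.

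Between the cell types, 19 of 56 tested partner genes were higher and 3 lower in WT LECs, where 10.3% and 12.3% of all genes were, and 18 of 58 were higher and 9 lower in KO LECs, where 9.11% and 16.8% were. The median log2 fold change was 0.57 in WT and 0.49 in KO, against -0.04 and -0.21 over all genes. Of the catenins, 3 were higher in WT LECs: Ctnna1 had 288 ± 78.8 CPM (SD, n = 4) in WT LECs and 78.0 ± 14.5 CPM (SD, n = 6) in WT IntSCs, Ctnnb1 639 ± 163 and 318 ± 29.8 CPM, and Ctnnd1 159 ± 76.9 and 50.7 ± 27.7 CPM. Jup (plakoglobin), which also binds VE-cadherin, had 717 ± 243 and 467 ± 162 CPM and did not pass in WT (adjusted p = 0.163). In KO, Ctnna1, Ctnnd1 and Jup (898 ± 332 against 327 ± 71.0 CPM, adjusted p = 0.00283) passed and Ctnnb1 did not. Ctnnd1 lost its call in WT without WT LEC 4 (adjusted p = 0.0809), and in KO without KO IntSC 3 or 4 or KO LEC 1 or 2. Cdh11, the cadherin of mesenchymal cells, was lower in WT LECs at 6.92 ± 9.64 CPM against 80.1 ± 15.3 CPM (adjusted p = 0.0340), a call lost without WT IntSC 2 or 5 or WT LEC 3.

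Of the tight junction partners, the polarity proteins Prkcz and Pard6g and the claudins Cldn4 and Cldn11 were higher in LECs in both genotypes. Prkcz, an atypical protein kinase C, had 90.6 ± 26.0 CPM (SD, n = 4) in WT LECs and at most 0.843 CPM in a WT IntSC library. Cldn4 had between 42.7 and 167 CPM in WT LECs, and between 0 and 3 reads in each WT IntSC library. Cldn11 had between 3.33 and 72.7 CPM in WT LECs and between 7.12 and 50.0 CPM in KO LECs, and at most 4.70 CPM in an IntSC library. Ptprj, Cgn and Cldn15 held 0 reads in all 3 KO LEC libraries. Over the 5 KO IntSC libraries they held 347, 166 and 182 reads, of which Cgn had 115 in KO IntSC 4. In WT, Cgn had 173 reads in WT LEC 3 and 0 in the other WT LECs, and 41 over the WT IntSCs, and Cldn15 had 153 and 68 reads in WT LEC 3 and 4 and 40 over the WT IntSCs.

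Other endothelial contact proteins had the highest list median between the cell types, 2.25 in WT and 2.14 in KO. Emcn, Icam2, Robo4, Thsd1 and Cd151 were higher in LECs in both genotypes, for example Emcn at 505 CPM in WT LECs against 8.47 CPM in WT IntSCs and Icam2 at 302 against 11.7 CPM, while Cd34 was lower (157 against 1707 CPM). Of the Rap1 and CCM proteins, Rasip1, a Rap1 effector, had 1147 ± 175 CPM (SD, n = 4) in WT LECs and 96.4 ± 26.3 CPM (SD, n = 6) in WT IntSCs, and its partner Arhgap29 547 ± 62.3 and 68.5 ± 28.8 CPM; both were also higher in KO LECs, as was the Rap1 exchange factor Rapgef5. Rapgef3 was lower in KO LECs (26.6 ± 20.4 CPM, SD, n = 3) than in KO IntSCs (107 CPM; adjusted p = 0.0240), a call lost without KO IntSC 1 or 2 or KO LEC 1.

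The genes whose profile over the 18 libraries was most like that of a member were found by the root mean square difference between log2(CPM + 1) profiles, each centred on its own mean, over 10726 genes with a mean of at least 5 CPM. The points share libraries and depth, so the measure is a description. F11r had the closest match, Fam63a (0.37), followed by Degs1 and Crip2 (0.38 each). Cldn5 was most like Fgl2 (0.53), Tnfaip8l3 (0.55) and Sgsm1 (0.62), Pecam1 like Ndrg1 (0.51), Bok (0.58) and Cav2 (0.59), and Cdh5 like Sema6a (0.85), Grap (0.85) and Ndrg1 (0.92). Esam was nearest to Chd8 (0.45), Adam15 (0.52) and 2310022B05Rik (0.53). Jam3 was nearest to Rcn3 (0.55), Txndc5 (0.56) and St3gal2 (0.59), Jam2 to Meis3 (0.70), Wdr35 (0.96) and St8sia2 (1.01), and Tjp1 to Polr2f (0.42), Sptan1 (0.52) and Itpr1 (0.53). Fgl2, the nearest to Cldn5, had 2078 ± 352 CPM (SD, n = 4) in WT LECs and 43.0 ± 12.2 CPM (SD, n = 6) in WT IntSCs.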

How the data were processed

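RNA from sorted cells was made into libraries with a QuantSeq kit and sequenced on an Illumina NextSeq instrument. The authors deposited raw counts, whole numbers of reads per gene symbol, in 1 table per library. The submitters' processing notes name Bowtie2, edgeR and mm10, and the study's methods name TopHat and Cufflinks. The counting program, its strand setting and its annotation are not given in the sources used here. Each table had 23282 rows, and the 35 symbols on more than 1 row were summed. Groups came from the sample titles.

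The test was edgeR 4.0.16 under R 4.3.3 (TMM factors, filterByExpr, robust glmQLFit, glmQLFTest, Benjamini-Hochberg adjustment over all genes tested, threshold 0.05), with the 2 groups compared in each fit and all 4 groups for genotype by cell type. The adjusted p values printed are from this fit unless another tool is named. SE is the log2 fold change divided by the square root of F. The procedure was tested on counts simulated from a negative binomial model with fitted dispersions. The simulation set no library apart, so it does not show how the test behaves where a single library carries a value. Total counts ran from 5361250 to 10549233, where 3 counts are 0.560 and 0.284 CPM; floors and intervals cover counting error only, since reads carry no molecular identifiers. Alternatives were DESeq2 1.42.0, limma-voom (limma 3.58.1), factors by RLE or by upper quartile, every gene with 1 read or more, genes with a mean count of 10 or more, the replicate number as a block, all 4 groups in one fit, no Rn45s, and each library left out in turn.

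The 9 members and all lists were chosen with earlier results of these data known, so counts over them are descriptions. Named were all members, list genes past the threshold (up to 5 of each direction by smallest p per list and comparison), in each KO against WT comparison the 3 list genes with the smallest unadjusted p and a mean of at least 5 CPM, the 3 genes most like each member, Lats1, Lats2, and marker genes. Genes named outside this rule, such as Ptprj, Cgn and Cldn15 with their zeros in KO LECs and the Rap1 genes that did not pass in IntSCs, were chosen after their values were seen. Loci are from GENCODE vM21 (GRCm38) and promoters from the RefSeq table of GRCm38.p6, cut to the 250 bases before the start.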

Additional observations from a re-analysis of the deposited data

Results flagged for a closer look

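In 49 groups of 4 to 6 libraries (each member and each marker list within a group), 5 held a library for which the distance to the next library, as a share of the group's range, exceeded Dixon's 95% critical value, where about 2.45 would by chance. KO LECs, with 3 libraries, were not examined in this way. Cdh5 in WT LEC 1 was one of them (133 CPM against 259 to 275 CPM in the other WT LECs, gap 0.887 of the range). WT LEC 1 also stood apart in the stromal list, at 2085 CPM against 629 to 688 CPM (gap 0.960), while its Cldn5 was the highest of the WT LECs. WT LEC 4 stood apart in the blood endothelial list, at 16605 CPM against 12124 to 12631 CPM (gap 0.887), a sum that was 98.3% Aqp1 in that library. Without Aqp1 the list summed to 279 CPM in WT LEC 4, inside the range of the other WT LECs (139 to 330 CPM). The single Ocln read, in WT IntSC 5, was set apart because the other 5 WT IntSC libraries had 0 (gap 1). WT IntSC 6 had 122 CPM of epithelial genes against 0 to 18.03 CPM in the other WT IntSC libraries (gap 0.853).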

How the results depend on the processing

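Of 768 alternative values for 39 member results, 721 kept direction and side of the threshold, 24 came to pass the threshold, 23 turned direction and 0 ceased to pass; of 36 group means in CPM, 0 moved by more than an SD without TMM. The causes of the changes were not tested. The count of genes past the threshold between LEC genotypes, 7, was 309 with DESeq2, 12 with limma-voom, 32 with no filter beyond 1 read, 20 with a mean count of at least 10, 538 with all 4 groups in one fit, and 0 to 16 when each library was left out. Between IntSC genotypes, 183 became 376 with DESeq2, 27 with all 4 groups in one fit and 99 to 186 when each library was left out. The 238 genes of genotype by cell type became 1023 with DESeq2, 143 with limma-voom and 161 to 461 when each library was left out. The counts between cell types, 2763 in WT and 3302 in KO, ran from 2233 to 2889 and from 2557 to 3320 when each library was left out.

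Libraries with the same replicate number deviated together little if at all (mean correlation of deviations 0.0098 in the IntSC comparison, -0.0037 in LECs, 0.0275 between WT and 0.00052 between KO cell types). Between WT cell types the same-number pairs ran from 0.022 to 0.038, against a mean of -0.0055 for different numbers. Correlations this small cannot tell whether the numbers pair libraries. In the fit blocked on replicate number, the counts were 3 in LECs, 1596 between WT and 895 between KO cell types and 16 for genotype by cell type; Esam in IntSCs passed (adjusted p = 0.0399), Ly6c1 (0.165), Kcnj8 (0.126) and Krt19 (0.0661) in IntSCs, Cdh11 (0.137) and Nos3 (0.0527) between WT and Ctnnd1 (0.134) and Cd36 (0.381) between KO cell types and the interaction of Krit1 (0.438) did not, and in IntSCs Jam2 turned to 0.31 and Tjp1 to 0.15.

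Most turned values belonged to differences near 0 or resting on 1 library. When each library was left out, the KO against WT value in LECs ran from -0.035 (without WT LEC 3) to 0.19 for Cldn5 and from -0.19 (without KO LEC 1) to 1.496 for Tjp1. In IntSCs it ran from -0.48 to 0.17 for Jam2 and from -0.23 to 0.12 for Tjp1. Between cell types Tjp1 ran from -0.13 to 0.22 in WT and from -0.19 (without KO LEC 1) to 1.53 in KO. The interaction ran from -6.77 to 1.89 (without KO LEC 2) for Jam2, from -0.32 to 1.46 for Jam3 and from -1.47 to 0.24 (without KO LEC 1) for Tjp1. With limma-voom, Jam2 in IntSCs was 0.39 and Tjp1 0.13. Tjp1 between WT cell types was -0.0036 with DESeq2, -0.0039 with RLE factors and -0.045 with upper-quartile factors. Cd34 in IntSCs passed in 19 of 20 alternatives, and its adjusted p was 0.191 with all 4 groups in one fit. Ocln in every comparison and Jam2 between the LEC genotypes had too few reads for a test, and the cause of the low counts was not tested.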
